A study of Mus musculus with 30 samples.

Results

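The interleukin-1 (IL-1) family is described here through 10 genes: the ligands Il1a, Il1b, Il33 and Il18, the signalling receptors Il1r1 and Il1rl1, the shared receptor chain Il1rap, the receptor antagonist Il1rn, the decoy receptor Il1r2 and the decoy binding protein Il18bp. They were chosen by name, and all 10 were found by Entrez identifier among the 14118 genes of the count matrix. The libraries are bulk RNA-seq of cells sorted by flow cytometry from mammary tumours of 5 FVB/N-Tg(MMTVPyVT)634Mul/J mice, in which the MMTV promoter drives the polyoma virus middle T antigen in mammary epithelium. Every group carries that transgene and no treatment, the tumours measured 750 mm3, and the labels number them 5, 6, 8, 10 and 11, so that each tumour gave 1 library to each of 6 populations (n = 5 in every group). The age of the mice is not stated in the labels. Cancer-associated fibroblasts (CAFs), sorted as CD45- CD31- CD90+, were split into CAF1 (CD34-) and CAF2 (CD34+). Endothelial cells were CD45- CD31+. Tumour-associated macrophages (TAMs), CD45+ F4/80+, were split into CD206hi MHCIIlo, CD206neg MHCIIlo and CD206pos MHCIIhi, shortened here to CD206hi, CD206neg and CD206pos.

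IL-1 alpha and IL-1 beta, made from Il1a and Il1b, bind the receptor of Il1r1, which recruits the accessory chain of Il1rap and signals through Myd88 to NF-kappaB. Il1rn encodes an antagonist that occupies the same receptor without signalling, and Il1r2 a receptor without a signalling domain that captures the ligands. IL-33, an alarmin held in the nuclei of stromal and barrier cells, signals through ST2, the product of Il1rl1, which also exists as a soluble decoy form, again with the chain of Il1rap. IL-18 acts through a receptor of its own and is captured by the product of Il18bp. IL-1 beta and IL-18 are made as precursors that caspase-1 cleaves in inflammasomes, and tumour macrophages are a known source of IL-1 beta.

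The sorted populations carried the lineage markers of their labels. Summed CPM (counts scaled to a common library total of 1e6) of 10 fibroblast genes were 38595 or more in every CAF library and 2564 or less elsewhere. The sum of 12 macrophage genes was 37376 or more in every TAM library and 129 or less elsewhere, and that of 10 endothelial genes was 3945 or more in endothelial libraries against at most 150 elsewhere (149.6). Libraries were not pure: 14 luminal epithelial genes summed to 268 to 2202 CPM in CAF1, 12.2 to 541 CPM in CAF2 and 306 to 3063 CPM in endothelial cells. Mrc1, the gene of CD206, measured 23.3 to 98.9 CPM in CD206neg, 727 to 1439 CPM in CD206hi and 604 to 2064 CPM in CD206pos. It set CD206neg apart but was higher in CD206pos than in CD206hi in every tumour except tumour 6. The CD206neg libraries of tumours 6 and 8 went against their label of low MHC class II. Their data columns are named for high MHC class II. Their H2-Aa levels were 7874 CPM in tumour 6, above the CD206pos range of 533 to 6589.5 CPM, and 2778 CPM in tumour 8, within it. Results of the 10 genes that change without these libraries are given both ways, and gene lists are given only with them included. In bulk RNA, fewer cells of a type and less RNA per cell cannot be told apart.

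On the mouse genome (mm10, GRCm38) 5 of the 10 genes lie in 2 clusters. Il1r2 (chromosome 1, 40084692 to 40125230), Il1r1 (40222480 to 40316201) and Il1rl1 (40404864 to 40465418) lie in that order on the plus strand of chromosome 1, with Il1rl2 between the last 2. Il1a (chromosome 2, 129299609 to 129310186) and Il1b (129364569 to 129371164) are neighbours on the minus strand, 54.4 kb apart, and Il1rn (24336860 to 24351491, plus strand) lies far from them on the same chromosome. Il33 is on chromosome 19, Il18 on 9, Il1rap on 16 and Il18bp on 7. Despite that spread, Il1a, Il1b and Il1rn were all high in TAM libraries and low in the others. The Pearson correlation of log2(CPM + 1), scaled by TMM factors, was 0.991 for Il1a with Il1b over 30 libraries. For Il1a with Il1rn it was 0.988. These values describe points that share 6 populations and 5 tumours, and genes outside the family reached as much (Ctss with Il1b, 0.996). Among the TAM groups the mean CPM by library totals was highest in CD206neg for Il1a and Il1b and in CD206pos for Il1rn. For Il1rn the TAM groups overlapped, and TMM scaling moved its CD206neg mean from 2030 to 2805 CPM.

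Shown are the 250 bases before the RefSeq starts of Il1a and Il1b and before the first of 3 Il1rn starts (GRCm38.p6, 5′ to 3′). These genes were taken because all 3 were high in TAM libraries. The second Il33 start is added as that of the main ligand of the other lineage. Capitals mark the motifs searched on both strands: TATAAA (in 12.4% of 32851 mouse promoter windows of this length), AP-1 TGANTCA (6.75%), C/EBP TTGCNNAA (9.56%), the PU.1 core GAGGAA (23.3%) and the NF-kappaB consensus (7.25%). The windows are chr2:129309973-129310222 (minus strand) for Il1a, chr2:129371140-129371389 (minus strand) for Il1b, chr2:24336610-24336859 (plus strand) for Il1rn and chr19:29945540-29945789 (plus strand) for Il33.
Il1a: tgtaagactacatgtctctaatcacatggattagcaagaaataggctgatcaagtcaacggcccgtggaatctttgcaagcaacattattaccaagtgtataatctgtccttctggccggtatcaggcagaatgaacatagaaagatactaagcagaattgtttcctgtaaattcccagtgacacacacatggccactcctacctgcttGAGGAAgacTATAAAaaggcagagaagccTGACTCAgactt
Il1b: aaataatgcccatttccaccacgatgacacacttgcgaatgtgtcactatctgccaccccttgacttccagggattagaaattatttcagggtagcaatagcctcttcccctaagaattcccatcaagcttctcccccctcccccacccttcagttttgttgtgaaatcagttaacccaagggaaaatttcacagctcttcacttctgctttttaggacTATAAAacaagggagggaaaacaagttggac
Il1rn: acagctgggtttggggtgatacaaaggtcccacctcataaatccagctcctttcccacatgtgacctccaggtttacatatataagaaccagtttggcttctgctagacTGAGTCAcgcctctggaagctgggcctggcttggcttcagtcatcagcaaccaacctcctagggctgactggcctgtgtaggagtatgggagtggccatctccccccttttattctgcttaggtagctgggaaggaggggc
Il33: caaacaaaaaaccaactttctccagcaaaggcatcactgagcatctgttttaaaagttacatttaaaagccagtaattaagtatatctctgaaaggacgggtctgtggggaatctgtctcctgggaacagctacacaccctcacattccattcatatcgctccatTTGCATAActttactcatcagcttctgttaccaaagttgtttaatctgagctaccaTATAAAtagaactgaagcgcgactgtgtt
The Il1a window held TATAAA at 32 to 27 bases before the start, the PU.1 core at 41 to 36 and AP-1 at 12 to 6. The Il1b window held TATAAA at 31 to 26 and none of the other motifs. The first Il1rn start had AP-1 at 141 to 135 and no TATAAA, and the second Il33 start had TATAAA at 29 to 24 and C/EBP at 85 to 78. Among the 15 RefSeq starts of the 10 genes, 5 held none of the motifs: those of Il1r2 and Il1rap, the second of Il1rl1 and both further starts of Il1rn. These matches are letters in a window, not shown binding sites, and counts per gene do not tell which start was used.

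**Figure D1:**
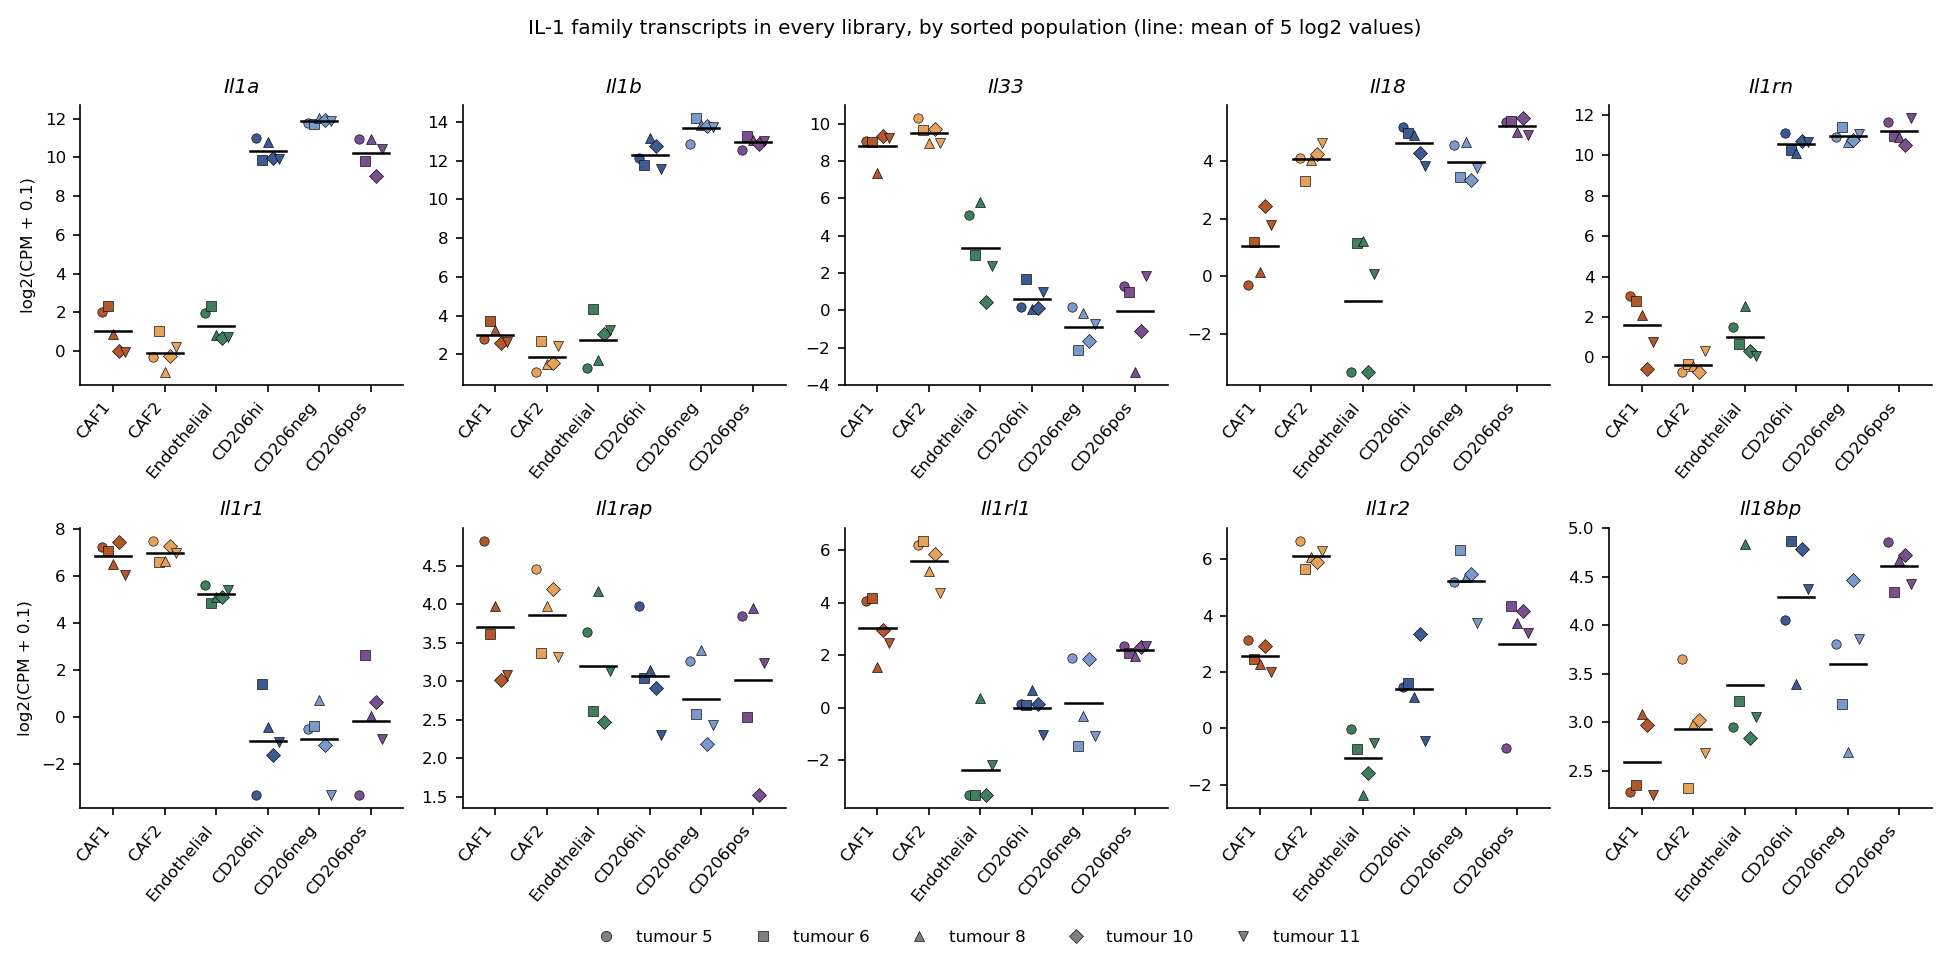
Each point is 1 library (marker shape: tumour), plotted as log2(CPM + 0.1) by sorted population, with a line at the mean of 5 log2 values. Il1a, Il1b and Il1rn stand about 10 log2 units higher in the 3 TAM groups, Il33 and Il1r1 are high in both CAF groups, and Il1r2 and Il1rl1 are higher in CAF2 than in CAF1; each panel has its own axis.

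Il1b was the most abundant transcript of the family and was found at high level in macrophages. In CD206neg it measured 7433, 18826, 14558, 14108 and 13648 CPM in tumours 5, 6, 8, 10 and 11, in CD206pos 5884, 9688, 8613, 7532 and 8124 CPM, and in CD206hi 4460.0, 3512, 9339, 6948 and 2974 CPM. In CAF1 it ran from 5.85 to 13.2 CPM, in CAF2 from 1.998 to 6.42 CPM and in endothelial cells from 2.32 to 20.1 CPM, with no overlap with the macrophages. Il1a followed at a lower level: per kilobase of exon, the scale on which genes can be compared, Il1b exceeded it by 3.63 to 6.73 times in the 3 TAM groups (mean log2 ratios of Il1a to Il1b of -1.86 ± 0.48 in CD206neg, -2.02 ± 0.64 in CD206hi and -2.75 ± 0.94 in CD206pos, SD, n = 5). Il1a reached 3480.1, 3438, 4202, 3920.5 and 3776 CPM in CD206neg, 2044, 928, 1788, 1008 and 957 CPM in CD206hi, and 2000.1, 892, 2006, 529 and 1369 CPM in CD206pos. All 5 CD206neg libraries lay above all 10 libraries of the other TAM groups, whose ranges overlapped each other.

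Between CAFs and TAMs, tested on all 30 libraries with edgeR's quasi-likelihood test at an adjusted p under 0.05, Il1a was lower in CAFs (log2 difference -10.59 ± 0.46, SE, a fold change of 1544, adjusted p = 2.1e-18), as was Il1b (log2 difference -10.89 ± 0.54, 1894-fold, adjusted p = 5.1e-17). Of all genes tested in that comparison 68.1% passed (37.3% higher and 30.8% lower), and of the 10 family genes 8 did, 3 higher and 5 lower in CAFs. Endothelial cells were lower than TAMs in Il1a (log2 difference -10.20 ± 0.63, adjusted p = 1.3e-14) and in Il1b (log2 difference -10.69 ± 0.75, adjusted p = 2.8e-13). There 61.3% of all genes passed (36.5% higher and 24.7% lower), with 2 family genes higher and 7 lower in endothelial cells.

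The low levels of Il1a, Il1b and Il1rn in the CAF and endothelial libraries are set here beside those of macrophage marker genes. In CAF1, Il1a stood at 0.116% and Il1b at 0.0915% of their mean TAM level, and the 12 macrophage genes at a median of 0.110% of theirs. In CAF2 the values were 0.0451% for Il1a and 0.0427% for Il1b against a median of 0.0436%, and in endothelial cells 0.124% and 0.0952% against 0.0837%. Il1rn stood at 0.0345% in CAF2, below the median, and at 0.120% in endothelial cells and 0.210% in CAF1, above it. The 12 macrophage genes ranged from 0.0551 to 13.8% in CAF1, 0.0351 to 4.63% in CAF2 and 0.0498 to 6.21% in endothelial cells. Mertk was the highest in each. The part of macrophage RNA in these values was not tested.

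Il33, the alarmin, had the opposite distribution. CAF2 libraries held 1274, 801, 493, 846 and 499 CPM. Those of CAF1, in the same tumour order, held 545, 514, 166, 648 and 609 CPM. The libraries of the 2 CAF groups overlapped, CAF2 being higher in 4 of 5 tumours. Endothelial libraries held 34.7, 7.74, 55.6, 1.27 and 5.10 CPM, and TAM libraries 0 to 3.50 CPM. CAFs exceeded TAMs in Il33 by 8.79 ± 0.55 on the log2 scale (443.8-fold, adjusted p = 8.3e-15), and endothelial cells were lower than CAF1 (log2 difference -5.22 ± 0.76, adjusted p = 2.6e-06) and than CAF2 (log2 difference -5.68 ± 0.78, adjusted p = 6.3e-07). Il33 was higher in endothelial cells than in TAMs by 3.35 ± 0.54 (adjusted p = 3.8e-06). Within endothelial cells it was highest in tumours 5 and 8, and the summed fibroblast genes of those 2 libraries, 2564 and 2226 CPM, were also the highest of the 5 (the others 1373 to 2011 CPM). Those sums do not measure fibroblast RNA alone, because they include Cd34, which was high in endothelial libraries. Cd34 measured 1544 CPM in tumour 5, 778 CPM in tumour 8 and 1233 to 1591 CPM in the others. The part of fibroblast RNA in the endothelial Il33 value was not tested.

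Il18 was a low transcript that divided the fibroblasts. CAF2 held 17.0, 9.81, 16.3, 18.7 and 24.5 CPM, CAF1 0.705, 2.18, 1.01, 5.28 and 3.30 CPM and endothelial cells 0, 2.12, 2.24, 0 and 0.948 CPM. The 5 CAF2 libraries lay above all CAF1 and endothelial libraries and overlapped the macrophages. Il18 was highest in CD206pos, at 40.5, 42.3, 31.8, 45.0 and 29.9 CPM, against 35.8, 31.0, 29.5, 19.1 and 14.004 CPM in CD206hi and 23.5, 10.7, 25.3, 10.01 and 13.6 CPM in CD206neg. Averaged over both CAF groups it was lower than in TAMs (log2 difference -2.20 ± 0.34, adjusted p = 1.5e-06), although the ranges overlapped. Endothelial cells were lower than TAMs without overlap (log2 difference -5.28 ± 0.57, adjusted p = 2.8e-09).

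Among the receptors, Il1r1, which binds the IL-1 ligands and signals with the chain of Il1rap, was found in stroma. It measured 182, 96.7, 98.96, 157 and 126 CPM in CAF2 and, among CAF1 libraries, 150.4, 136, 90.7, 175 and 65.8 CPM. Endothelial libraries held 49.4, 29.2, 34.3, 34.6 and 42.0 CPM. TAM libraries held 0 to 6.20 CPM, with 3 of 15 at 0. CAF1 and CAF2 overlapped, with a log2 difference of 0.01 (95% interval -0.42 to 0.43), and every endothelial library lay below every CAF library and above every TAM library. Endothelial cells were lower than CAF1 (log2 difference -2.16 ± 0.54, adjusted p = 0.0023) and than CAF2 (log2 difference -2.17 ± 0.54, adjusted p = 0.0016), and exceeded TAMs by 4.62 ± 0.45 (adjusted p = 3.8e-10). CAFs exceeded TAMs by 6.78 ± 0.43 (110.1-fold, adjusted p = 1.2e-14). In the fit of the macrophages alone Il1r1 did not pass the filter on low counts and was not tested.

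Il1rap, the shared chain, varied little between populations. Its mean ran from 7.10 ± 2.69 CPM in CD206neg to 15.1 ± 5.18 CPM in CAF2 (SD, n = 5), and neighbouring groups in that order overlapped throughout. Between CAFs and TAMs it missed the threshold (log2 difference 0.47 ± 0.21, adjusted p = 0.051) and passed it with tumour as a replicate block (0.50, adjusted p = 0.0097). It also passed with DESeq2 (adjusted p = 0.026), its size factors in edgeR (0.029), library totals (0.010), the fit of another set of libraries (0.042) and without CD206hi library 5, CD206pos library 5, 8 or 11, CAF2 library 6, CD206neg library 8 or CAF1 library 10 (0.029 to 0.045). Endothelial levels were lower than those of CAF1 (log2 difference -0.94 ± 0.33, adjusted p = 0.027) and of CAF2 (log2 difference -0.98 ± 0.33, adjusted p = 0.015). Both calls were lost when libraries were scaled by their totals alone (adjusted p = 0.35 and 0.27). They were also lost without tumour 6 (adjusted p = 0.13 and 0.068) and without endothelial library 10 (0.086 and 0.051). For CAF1 alone, leaving out tumour 5, tumour 11, CAF1 library 5, or endothelial library 6 or 11 gave 0.054 to 0.090. Endothelial cells and TAMs differed by -0.49 ± 0.28 (adjusted p = 0.12), a sign that turned to 0.25 under library totals, while the replicate block gave -0.52 (adjusted p = 0.040). Without endothelial library 8 or CD206pos library 10 it also passed (adjusted p = 0.035 in both).

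Il1rl1, the IL-33 receptor, was found mainly in CAF2, at 73.7, 82.9, 36.7, 58.5 and 20.8 CPM. CAF1 held 16.6, 18.0, 2.86, 7.65 and 5.38 CPM, less in every tumour and with no overlap. Endothelial libraries held 0, 0, 1.21, 0 and 0.119 CPM, CD206hi 0.382 to 1.51 CPM, CD206neg 3.64, 0.265, 0.717, 3.56 and 0.377 CPM and CD206pos 3.82 to 4.99 CPM. CAFs exceeded TAMs by 3.26 ± 0.36 (9.56-fold, adjusted p = 3.1e-09). Endothelial cells were lower than CAF1, CAF2 and TAMs (adjusted p = 4.9e-07, 9.6e-10 and 6.4e-05), but with 3 of 5 endothelial libraries at 0 the fitted fold changes depend on the fit's prior count and are not given. Counts per gene do not separate the membrane form from the soluble form of this receptor. In CD206neg, tumour 5 also had a mast cell and basophil gene sum of 301 CPM against 0 to 5.45 CPM in the other 4, of which tumour 10 had 5.45 CPM. The genes summed were Kit, Cpa3, Cma1, Mcpt4, Tpsb2 and Tpsab1, and mast cells are known for Il1rl1. The part of mast cell RNA in the Il1rl1 level was not tested.

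The antagonist Il1rn followed the ligands into macrophages. It measured 3266, 2028, 1941, 1481 and 3717 CPM in CD206pos, 1949, 2719, 1602, 1757 and 2122 CPM in CD206neg, and 2210.3, 1244, 1120.1, 1678 and 1599.9 CPM in CD206hi. The 3 groups overlapped and none of their differences passed the test. CAFs were lower than TAMs (log2 difference -10.60 ± 0.49, 1549-fold, adjusted p = 8.9e-18), and so were endothelial cells (log2 difference -10.54 ± 0.68, adjusted p = 3.4e-14). Per kilobase, Il1b exceeded Il1rn in all 15 TAM libraries, on average by 9.45 times in CD206hi, 9.73 times in CD206pos and 19.1 times in CD206neg. The size of these ratios rests on the exon lengths used, 5.54 kb for Il1rn and 1.91 kb for Il1b. In CPM, Il1b was also higher in all 15. The log2 ratio of Il1rn to Il1b was -2.55, -3.03, -4.597, -3.59 and -2.43 in CD206hi, -3.47, -4.33, -4.72, -4.54 and -4.22 in CD206neg and -2.39, -3.79, -3.69, -3.88 and -2.67 in CD206pos. In each tumour the CD206neg library had the lowest of the 3 ratios, while the groups overlapped.

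The decoy receptor Il1r2 was expressed in CAF2 and CD206neg. CAF2 held 100.9, 50.3, 67.6, 58.9 and 77.4 CPM and CD206neg 36.7, 79.6, 41.0, 44.8 and 13.1 CPM. CAF1 held 8.66, 5.35, 4.70, 7.42 and 3.92 CPM, CD206pos 0.519, 20.02, 13.2, 18.0 and 10.2 CPM, CD206hi 2.63, 2.93, 2.04, 9.996 and 0.637 CPM and endothelial cells 0.0933 to 0.886 CPM. CAF2 did not overlap CAF1, nor CD206neg CD206hi. Averaged over the groups of each lineage, CAFs and TAMs differed by 0.35 ± 0.36 (adjusted p = 0.40). Endothelial cells were lower than CAF1 (log2 difference -4.12 ± 0.75, adjusted p = 6.5e-05), than CAF2 (log2 difference -7.61 ± 0.78, adjusted p = 3.7e-09) and than TAMs (log2 difference -5.52 ± 0.71, adjusted p = 8.4e-08). Set against the signalling receptor per kilobase, Il1r2 and Il1r1 gave log2 ratios of 0.89, 0.80, 1.19, 0.32 and 1.04 in CAF2 and -2.36, -2.90, -2.51, -2.80 and -2.29 in CAF1. Per kilobase, decoy transcript exceeded the signalling receptor in every CAF2 library and was 5.95 times lower on average in CAF1. The direction in CAF2 rests on the exon lengths used, 1.91 kb for Il1r2 and 6.36 kb for Il1r1. In CPM, Il1r2 lay below Il1r1 in every CAF2 library. In TAMs the same ratio was 1.95 or more in every library, over an Il1r1 level of 3 counts or fewer in 6 of 15.

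Il18bp, the decoy of IL-18, ranged from 4.65 to 29.2 CPM over the 30 libraries. It was lower in CAFs than in TAMs (log2 difference -1.79 ± 0.25, adjusted p = 1.9e-07) and in endothelial cells than in TAMs (log2 difference -1.47 ± 0.32, adjusted p = 0.00020), the latter lost under library totals (adjusted p = 0.0702). CAF1 (4.65 to 8.39 CPM), CAF2 (4.91 to 12.5 CPM) and endothelial cells (7.04 to 9.24 CPM with 1 library, of tumour 8, at 28.6 CPM) overlapped. Per kilobase, the log2 ratio of Il18bp to Il18 was -0.01 ± 1.15 in CAF1 and -2.68 ± 0.54 in CAF2 (SD, n = 5), without overlap. In endothelial cells the ratio was 2.59 ± 1.82. Endothelial tumours 5 and 10 had no Il18 count, so their ratios are set by the pseudocount, and with 0.5 counts the endothelial mean was 3.01. The ratio lay between -3.53 and -0.42 in the 15 TAM libraries. These ratios rest on the exon lengths used, 3.03 kb for Il18bp and 1.03 kb for Il18. In mean CPM, Il18bp lay above Il18 in CAF1 (6.11 against 2.50 CPM). It lay below Il18 in the mean of each TAM group, though not in every TAM library.

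**Figure D2:**
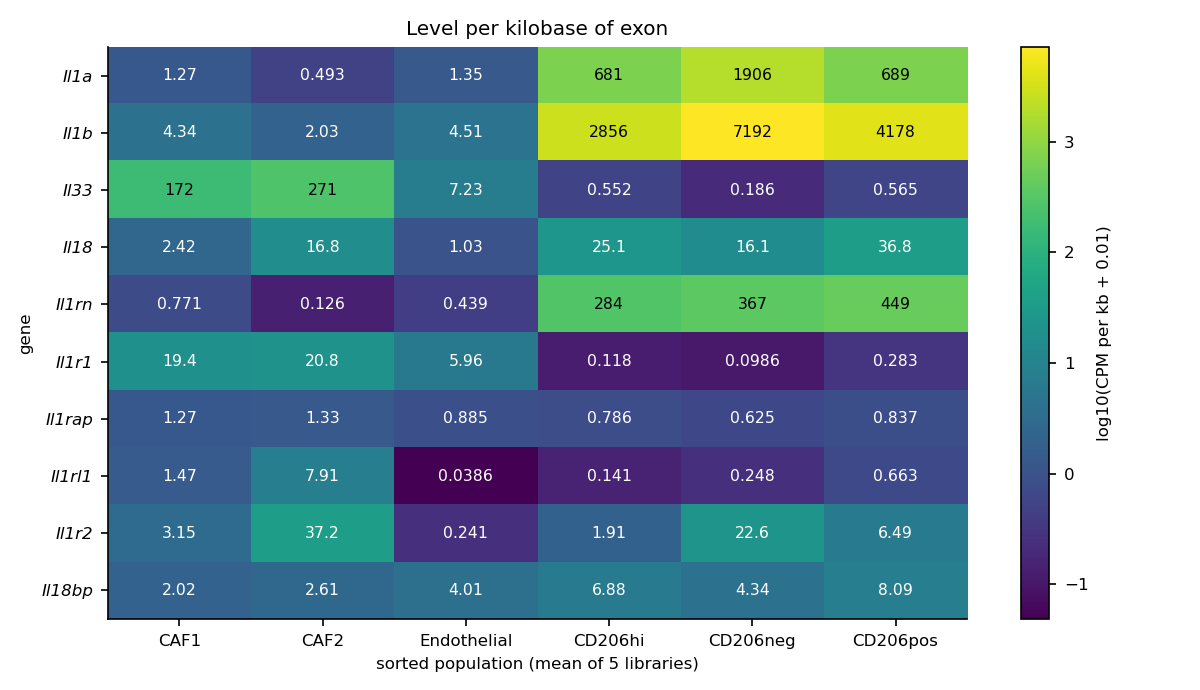
Mean CPM per kilobase of exon (5 libraries; numbers in cells, colour on a log10 scale) for the 10 genes in the 6 populations. Il1b, Il1a and Il1rn carry the highest values in the TAM columns, Il33 in the CAF columns, and Il1r2 reads 37.2 in CAF2 against 3.15 in CAF1 while Il1r1 reads 20.8 and 19.4.

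Within the fibroblasts, the CD34- and CD34+ populations differed in 4 of the 10 genes, where 19.5% of the 12149 genes tested passed (10.9% higher and 8.59% lower in CAF1). In CAF1 the decoy Il1r2 was lower (log2 difference -3.48 ± 0.20, 11.1-fold, adjusted p = 1.2e-06), as were the ligand Il18 (log2 difference -2.58 ± 0.53, 5.99-fold, adjusted p = 0.0043) and the receptor Il1rl1 (log2 difference -2.37 ± 0.47, 5.19-fold, adjusted p = 0.0034), each in 5 of 5 tumours. The antagonist Il1rn was higher in CAF1 by 2.57 ± 0.61 (5.93-fold, adjusted p = 0.0098), at 8.16, 6.87, 4.15, 0.562 and 1.59 CPM against 0.4995, 0.701, 0.649, 0.502 and 1.15 CPM, so that CAF1 tumour 10 lay within the CAF2 range. Without tumour 6 the Il1rn call was lost (adjusted p = 0.055). Il1b was higher in CAF1 in 5 of 5 tumours by 1.18 ± 0.42 but passed only with tumour as a replicate block (1.27, adjusted p = 0.011, against 0.072 without), with DESeq2 (0.029) or without CAF2 library 6 (0.025). Il1a differed by 1.37 ± 0.61 (adjusted p = 0.15), Il33 by -0.44 ± 0.40 (0.51), Il1rap by -0.03 ± 0.24 (0.96) and Il18bp by -0.21 ± 0.29 (0.67).

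The CAF1 libraries with most Il1rn were those with most epithelial RNA. Summed CPM of the 14 luminal epithelial genes was 2202, 1949, 999, 268 and 458 in CAF1, in the same order of tumours as the Il1rn values, and 12.2, 541, 29.6, 35.4 and 39.2 in CAF2. CAF1 tumours 5 and 6, the highest in epithelial genes, also had the highest Il1a, at 4.03 and 5.02 CPM against 0.857 to 1.75 CPM in the others. In CAF2 tumour 6, with an epithelial sum of 541 CPM, Il1rn was 0.701 CPM and Il1a 1.99 CPM, the highest Il1a of that group. Macrophage sums also differed, at 34.8 to 90.7 CPM in CAF1 and 20.2 to 38.3 CPM in CAF2. The part of either cell type in the CAF1 levels of Il1rn, Il1a and Il1b was not tested. Other markers differed too: 9 of 9 pericyte and smooth muscle genes, 4 of 5 myoepithelial genes and 9 of 12 luminal epithelial genes tested (12 with the replicate block) were higher in CAF1 and none lower, and their part in the 4 calls was not tested.

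**Figure D3:**
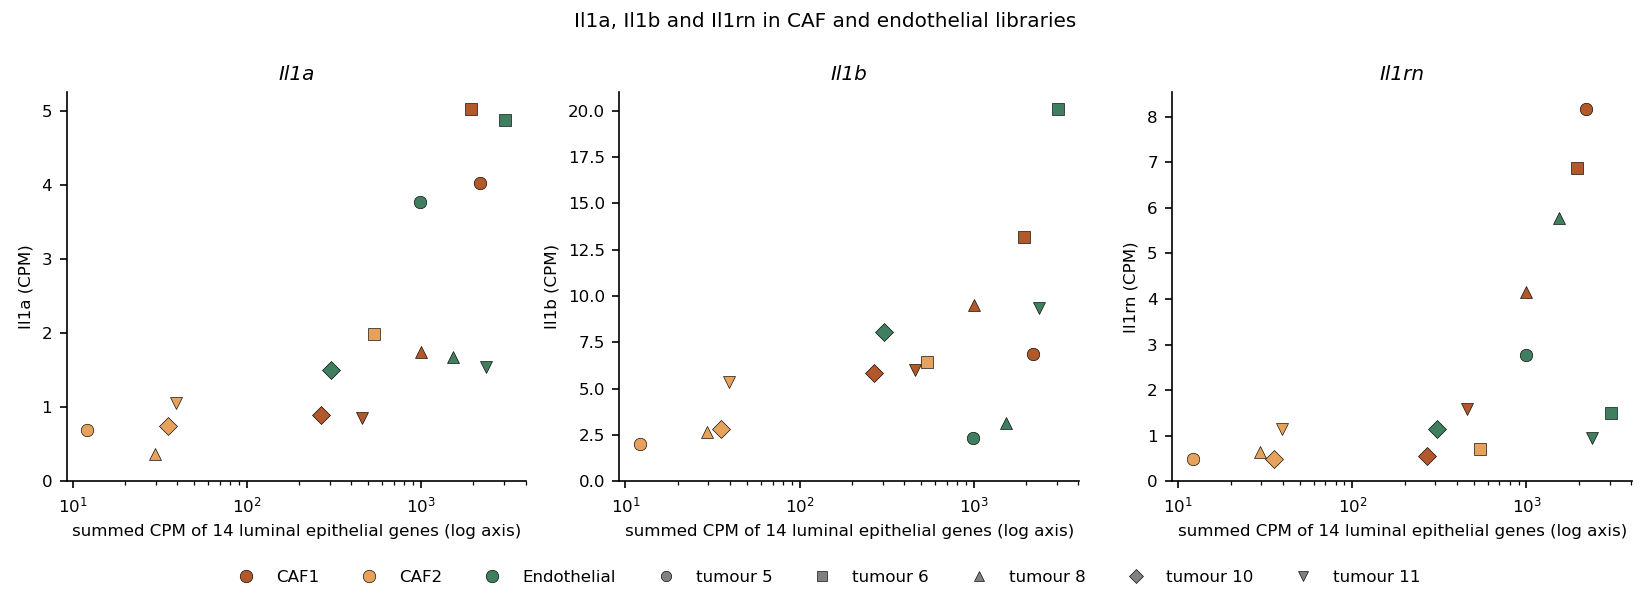
Il1a, Il1b and Il1rn (CPM, vertical) against the summed CPM of 14 luminal epithelial genes (log axis) in the 15 CAF and endothelial libraries, coloured by population with tumours as shapes. The 3 CAF1 libraries with the highest epithelial sums have the highest Il1rn of that group (4.15 to 8.16 CPM), and endothelial tumours 6 and 11, with sums of 3063 and 2385 CPM, have 1.498 and 0.948 CPM.

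Other genes of the pathway passed the test in shares to be read against the 19.5% of all genes. Of the 11 other family genes listed, 4 were in the matrix and 2 were tested, both lower in CAF1: Il1rl2, the IL-36 receptor, (log2 difference -1.34 ± 0.22, 13.1 against 36.0 CPM, adjusted p = 0.00099) and Il1f10, the gene of IL-38, (log2 difference -2.83 ± 0.68, 1.06 against 7.77 CPM, adjusted p = 0.011). Il1f10 had no count in any endothelial or TAM library. Of 19 signalling genes 2 were higher and 3 lower in CAF1 (2 and 2 with the replicate block), with a median log2 difference of -0.14 against 0.01 over all genes tested. Irak3, an inhibitor of receptor signalling, was lower in CAF1, at 16.7 against 80.6 CPM (-2.20, adjusted p = 4.5e-05), Nfkbiz differed by -0.77 (adjusted p = 0.019), and Tnfaip3, an NF-kappaB feedback inhibitor, was 0.83 higher (adjusted p = 0.0071). Of 7 inflammasome genes tested (12 listed) Gsdmd, the pore former, was lower (log2 difference -0.78, adjusted p = 0.0047) and none was higher, and with the replicate block 3 were lower. Of 18 genes known to respond to IL-1, 2 were higher and 2 lower (4 and 4 with the replicate block), among them the collagenase Mmp13, at 293 against 6.77 CPM (adjusted p = 0.0011), and the growth factor Csf2, at 4.604 against 76.1 CPM (adjusted p = 0.00027).

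Within the macrophages, CD206neg differed from both other groups. Against CD206neg, CD206hi was lower in 3 of 9 family genes tested: Il1a (log2 difference -1.72 ± 0.36, 3.29-fold, adjusted p = 0.0040), Il1b (log2 difference -1.64 ± 0.46, 3.11-fold, adjusted p = 0.026) and Il1r2 (log2 difference -3.90 ± 0.74, 14.96-fold, adjusted p = 0.0020). All 3 were lower in 5 of 5 tumours, and 10% of all genes tested passed (6.14% higher and 3.90% lower). These fold changes use TMM factors, which raise the CD206neg libraries: scaled that way, mean CD206neg levels were 4966 CPM for Il1a and 19227 CPM for Il1b, against 3763 and 13715 CPM by library totals. The Il1b call was lost without the CD206neg libraries of tumours 6 and 8 (log2 difference -1.35, adjusted p = 0.14) and in 8 of 15 fits without a tumour or library. Those were the fits without tumour 6, 10 or 11, CD206hi library 5, 6 or 11, or CD206neg library 6 or 11 (adjusted p = 0.051 to 0.20). Il1a and Il1r2 passed in each of these fits. The other 6 genes tested did not pass: Il33 differed by 1.52 ± 0.85 (adjusted p = 0.33), Il18 by 0.49 ± 0.24 (0.24), Il18bp by 0.48 ± 0.34 (0.47), Il1rap by 0.14 ± 0.34 (0.88), Il1rl1 by -0.84 ± 0.56 (0.44) and Il1rn by -0.64 ± 0.39 (0.39).

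CD206pos was lower than CD206neg in Il1a (log2 difference -1.74 ± 0.36, 3.34-fold, adjusted p = 0.0032) and in Il1r2 (log2 difference -2.04 ± 0.67, 4.11-fold, adjusted p = 0.049), and higher in Il18 by 1.09 ± 0.24 (2.12-fold, adjusted p = 0.0049), where 14.7% of all genes passed (8.85% higher and 5.85% lower). Il18 was higher in 5 of 5 tumours without overlap, a call not reached in the fit of all 30 libraries (adjusted p = 0.13). Il1r2 stood at the threshold: it was lost without the CD206neg libraries of tumours 6 and 8 (-1.38, adjusted p = 0.25), under DESeq2's scaling in edgeR (0.051), in DESeq2 (0.055), under library totals (0.071) and in 12 of 15 fits without a tumour or library (all 5 tumours, CD206neg libraries 5, 6, 8 and 10, and CD206pos libraries 8, 10 and 11). Il1b was lower in 5 of 5 tumours (log2 difference -1.06 ± 0.45, adjusted p = 0.12). With tumour as a replicate block 5 genes passed instead of 3, adding Il1rl1 (1.62 higher, adjusted p = 0.045) and Il18bp (0.82 higher, adjusted p = 0.014). Il1rl1, whose ranges did not overlap, missed the threshold without the block (1.41 ± 0.53, adjusted p = 0.085), and passed with DESeq2 (0.044) and without CD206neg library 10 (0.037). Il1b passed with DESeq2 (adjusted p = 0.035). Il33 differed by 1.65 ± 0.84 (adjusted p = 0.20), Il1rap by 0.23 ± 0.34 (0.70), Il1rn by 0.06 ± 0.39 (0.94) and, without the block, Il18bp by 0.67 ± 0.34 (0.20).

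Neutrophils are known for Il1r2, and 6 of 12 neutrophil genes were in the matrix. Their sum was 63.5 to 164 CPM in CD206neg, 35.6 to 84.5 CPM in CD206hi and 68.4 to 106 CPM in CD206pos, most of it from Csf3r and Trem1, which macrophages also express. S100a8, S100a9 and Retnlg averaged 1.14, 0.575 and 4.37 CPM in CD206neg, while Retnlg was at 0 in 4 of 5 libraries of each other TAM group. Of the 3 neutrophil genes tested none passed between CD206neg and either other group, and with the replicate block 1 was lower in CD206hi than in CD206neg. CD206neg tumour 5 had the highest neutrophil sum (164 CPM) and tumour 6 the lowest (63.5 CPM), while Il1r2 was highest in tumour 6. The part of neutrophil RNA in the Il1r2 level was not tested.

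CD206hi and CD206pos were not told apart by any of the 9 family genes tested in edgeR, where 0.19% of all genes passed (0.00905% higher and 0.181% lower in CD206hi). At an unadjusted p under 0.05 there were 3, Il1rl1, Il1r2 and Il18, all lower in CD206hi. Il1rl1, lower without overlap (log2 difference -2.25 ± 0.56, adjusted p = 0.16), was the 1 gene that DESeq2 called (adjusted p = 0.0079). Il1r2 differed by -1.86 ± 0.71 (adjusted p = 0.54) and Il18 by -0.59 ± 0.23 (0.57). Of the others, Il1rn differed by -0.70 ± 0.39 (adjusted p = 0.79), Il1b by -0.58 ± 0.45 (0.87), Il18bp by -0.18 ± 0.33 (0.94), Il33 by -0.13 ± 0.79 (0.98), Il1rap by -0.09 ± 0.34 (0.98) and Il1a by 0.02 ± 0.35 (0.996).

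**Figure D4:**
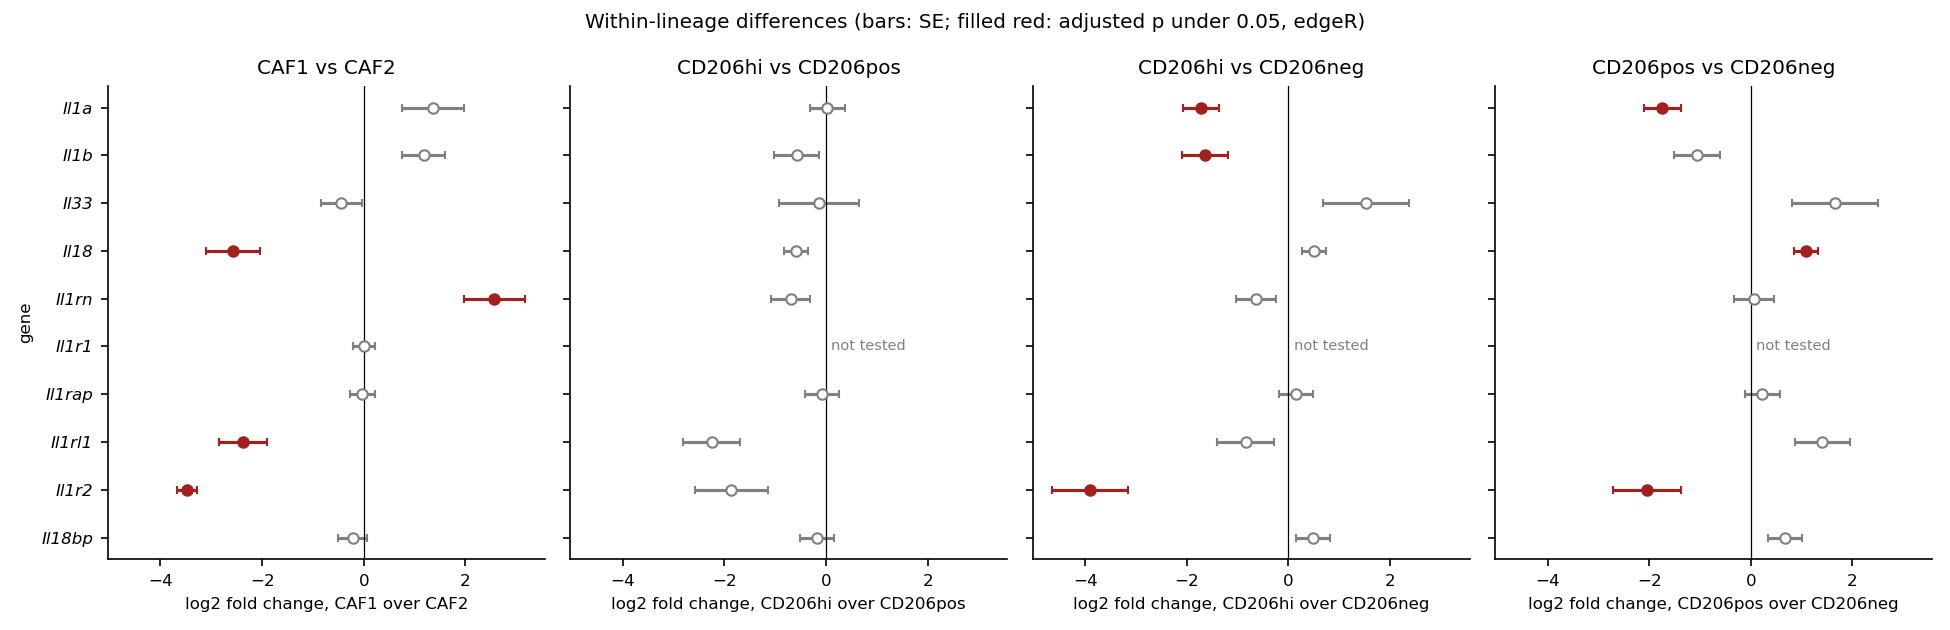
Log2 fold change with SE of each of the 10 genes in the 4 comparisons within a lineage; filled red points passed an adjusted p under 0.05 in edgeR. Il1r2 is at -3.48 for CAF1 against CAF2 and at -3.90 for CD206hi against CD206neg, and no point passed between CD206hi and CD206pos.

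Of 15 IL-1 response genes tested in macrophages, 6 were higher and 1 lower in CD206hi than in CD206neg, with a median log2 difference of 0.63 against 0.02 over all genes, and 8 were higher and 1 lower in CD206pos than in CD206neg (median 1.83 against 0.02). With the replicate block the counts were 7 and 3, and 9 and 2. Over all genes tested, without the block, 10% passed for CD206hi against CD206neg (6.14% higher and 3.9% lower). For CD206pos against CD206neg 14.7% passed (8.85% higher and 5.85% lower). The chemokine gene Ccl2 averaged 7888 CPM in CD206hi, 7145 CPM in CD206pos and 674 CPM in CD206neg (adjusted p = 0.00043 and 0.00053), and Lif, a cytokine gene, 38.9, 41.4 and 5.66 CPM (adjusted p = 0.00051 and 0.00028). Both genes lay lower in the group with most Il1a and Il1b transcript. The 2 comparisons share the CD206neg libraries, and the list genes are given only with those of tumours 6 and 8 included. Of 5 monocyte marker genes tested, 5 were higher in CD206pos and 1 in CD206hi (2 with the replicate block) than in CD206neg, and their part in these differences was not tested. Of 19 signalling genes, Irak2 was lower in CD206hi (-1.02, adjusted p = 0.0033) and in CD206pos (-0.76, adjusted p = 0.019) and the inhibitor Irak3 higher (1.01, adjusted p = 0.043, and 1.35, adjusted p = 0.0068). With the replicate block 2 signalling genes in place of 1 were higher in CD206pos. Of 12 inflammasome genes 2 were higher in each comparison and none lower, while with the replicate block 1 was lower in each and 3 were higher in CD206pos.

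Between lineages, inflammasome genes were mostly lower outside the macrophages. Of 12 inflammasome genes 11 were lower and 1 higher in CAFs than in TAMs (median log2 difference -2.35 against 0.10 over all genes), and 11 were lower in endothelial cells than in TAMs with none higher. Nlrp3, the sensor, averaged 166, 215 and 246 CPM in CD206hi, CD206neg and CD206pos and 0.508, 0.186 and 0.167 CPM in CAF1, CAF2 and endothelial cells. Of 19 signalling genes 1 was higher and 11 lower in CAFs than in TAMs (2 and 12 with the replicate block), and of 19 response genes 6 were higher and 5 lower (7 and 4). Over all genes 68.1% passed between CAFs and TAMs (37.3% higher and 30.8% lower in CAFs). Between endothelial cells and TAMs 61.3% passed (36.5% higher and 24.7% lower in endothelial cells). Without the block, the signalling and response lists did not exceed the share of all genes between CAFs and TAMs. Il6, a response gene, was 5.07 higher in CAFs (adjusted p = 1.2e-15), and Cxcl2 was lower (-5.79, adjusted p = 7.1e-14).

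Endothelial cells were lower than both CAF groups in 6 of the 10 family genes and higher in none, where 34.7% of all genes passed against CAF1 (15.9% higher and 18.8% lower) and 46.0% against CAF2 (23.7% higher and 22.3% lower). The 6 were Il33, Il18, Il1r1, Il1rap, Il1rl1 and Il1r2. Il18 was lower than in CAF2 (log2 difference -4.39 ± 0.59, adjusted p = 4.1e-07) and than in CAF1 (log2 difference -1.78 ± 0.60, adjusted p = 0.021). The CAF1 difference was lost under library totals (adjusted p = 0.12), in a fit of fewer groups (0.15), and without tumour 10 or 11, CAF1 library 10 or 11, or endothelial library 10 (0.053 to 0.25). Against CAF1 the other 4 did not pass: Il1a differed by -0.30 ± 0.48 (adjusted p = 0.68), Il1b by -0.38 ± 0.53 (0.63), Il18bp by 0.44 ± 0.36 (0.38) and Il1rn by -1.22 ± 0.51 (0.061). That Il1rn difference passed with DESeq2 (adjusted p = 0.027) and without tumour 8, endothelial library 8 or CAF1 library 10 (0.011 to 0.020), and Il18bp passed, higher, with library totals (0.041). Against CAF2, Il1a differed by 1.09 ± 0.52 (adjusted p = 0.088), Il1b by 0.79 ± 0.54 (0.24) and Il18bp by 0.20 ± 0.36 (0.68). Library totals made Il1a and Il1b pass, higher than in CAF2 (adjusted p = 0.017 and 0.031), as did leaving out CAF2 library 6 for Il1a (0.021). Il1rn was higher than in CAF2 with a replicate block (1.41, adjusted p = 0.036, against 0.054 without). It also passed with DESeq2 (adjusted p = 0.029), library totals (0.00649), and without endothelial library 10 or 11, CAF2 library 11 or tumour 11 (0.022 to 0.038). Sigirr, which encodes an inhibitory receptor of the family, averaged 72.1 ± 11.1 CPM in endothelial cells (SD, n = 5) and 4.37 CPM or less in each other group (4.70 higher than CAF1 and 6.82 higher than CAF2, adjusted p = 9.8e-08 and 8.3e-10).

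**Figure D5:**
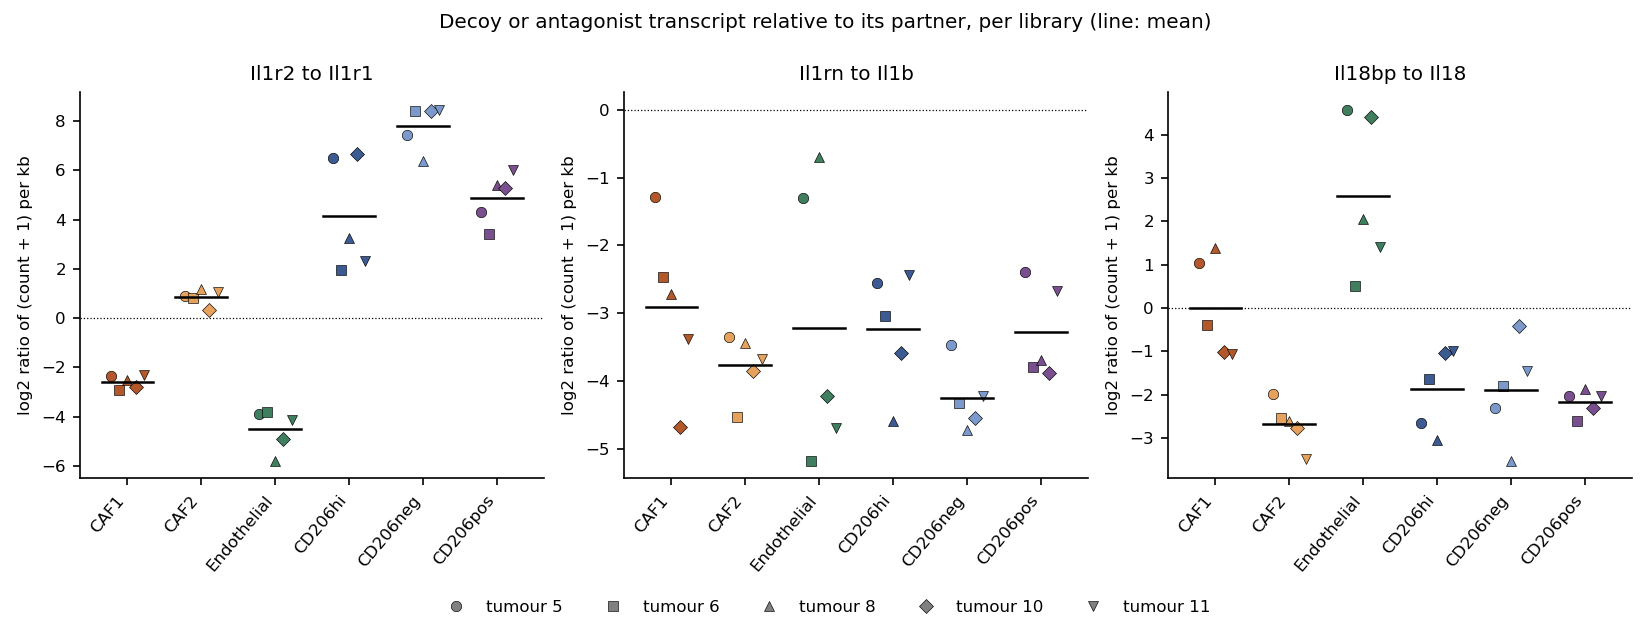
Log2 ratio of (count + 1) per kilobase for 3 pairs of a decoy or antagonist and its partner, 1 point per library with a line at the mean. Il1r2 to Il1r1 is above 0 in all CAF2 and TAM libraries and below 0 in all CAF1 and endothelial libraries, Il1rn to Il1b is below 0 throughout, and Il18bp to Il18 separates CAF1 from CAF2.

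The genes most like each member over the 30 libraries were ranked by Pearson correlation among 10182 with a mean of at least 10 CPM in some group. For Il1a they were Cybb, Cd300lf and Ctss (Pearson r 0.994 to 0.995), for Il1b Ctss, Aif1 and Ms4a7 (0.995 to 0.996) and for Il1rn Cd300a, Ccr1 and Nlrp3 (0.994 to 0.995). Il33 was followed by Scn7a, Ms4a4d and Clip3 (0.983 to 0.985), and Il1r1 by Fbln2, Arhgap32 and Tmem263 (0.978 to 0.981). For Il18 the nearest was Rab32 (0.963), for Il1rl1 Tubb4a (0.904), for Il1r2 Htra4 (0.905), for Il18bp Pip4p1 (0.889) and for Il1rap Pdha1 (0.839). These correlations are descriptions over libraries that share 6 populations and 5 tumours.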

How the data were processed

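RNA was measured in 30 libraries, 6 sorted populations from each of 5 tumours. Per the labels' protocols, a collagenase I and DNase digest preceded sorting, and the library kits were SMARTseq v4 followed by Ovation Ultralow V2. The submitters' processing notes name Trimmomatic 0.36, HISAT2 2.0.4, SAMtools 1.3.1, DESeq2 1.26 and mm10. For the counting step, tool and strand were not given in the sources used here. Values that the authors deposited are counts per Entrez gene (whole numbers, lowest gene total 72) and a normalised signal. In that deposited signal the counts are divided by 1 factor per library (largest relative spread 1.3e-09), and it was not used further. Totals of 6292411 to 11957076 counts put 3 counts at 0.251 to 0.477 CPM, a floor that covers counting error only. Between 11514 and 13756 genes were detected per library. For 25 of 30 libraries the nearest other library was of the same population.

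Tests used edgeR 4.0.16 (R 4.3.3): filterByExpr, TMM, quasi-likelihood F test and Benjamini-Hochberg adjustment over all genes tested at 0.05, without a block. CAF1 and CAF2 shared a fit of 10 libraries, the TAM groups 1 of 15 and comparisons between lineages 1 of 30. The code was tested on simulated data. CPM use library totals and fold changes TMM. CAFs and TAMs entered their comparisons as the average of their groups' fitted log2 levels. The 6 populations of a tumour come from 1 animal, so the tumour number pairs libraries. Deviations from group means correlated by 0.0205 to 0.381 between same-tumour CAF libraries, 0.111 to 0.648 between those of TAMs and 0.0213 to 0.574 over all 30. Values with the block are given beside results of the 10 genes whose call it changes and beside the printed list counts it changes. Column names of 2 CD206neg libraries give high MHC class II where the labels give low. Groups follow the labels.

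Exon lengths come from the union of annotated exons (GRCm38) and promoters from RefSeq (GRCm38.p6). The 10 genes and the 17 lists of pathway and marker genes were chosen with earlier results of these data known. Each family gene is named in every comparison, and of each list at most 3 genes per comparison, those with the smallest adjusted p and 1 direction in all tumours. Marker genes named beyond this were chosen after their values were seen. Alternatives were the block, DESeq2 1.42.0, its size factors (RLE), no filter, a fit on other libraries, and leaving out each library, each tumour, or CD206neg 6 and 8. Library totals alone, and the Il1a to Il1b ratio, were added after seeing the data. Of the listed family genes, 7 (Il36a, Il36b, Il36g, Il36rn, Il18rap, Il1rapl1 and Il1rapl2) were not analysed here.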

Additional observations from a re-analysis of the deposited data

Results flagged for a closer look

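Of 60 sets of 5 libraries (10 genes in 6 populations), 6 had 1 library set apart from the other 4 by a gap above Dixon's 95% value of 0.710, where chance gives about 1 in 20. Il33 was low in CAF1 tumour 8, at 166 CPM against 514 to 648 CPM. Endothelial tumour 8 was high in Il18bp, at 28.6 CPM against 7.04 to 9.24 CPM, and in Il1rl1, at 1.21 CPM against 0 to 0.119 CPM. Il1r1 was high in tumour 6 in both CD206hi (2.51 CPM, others 0 to 0.646 CPM) and CD206pos (6.20 CPM, others 0 to 1.45 CPM), levels far below those of CAFs. Il1r2 was high in CD206hi tumour 10, at 9.996 CPM against 0.637 to 2.93 CPM.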

How the results depend on the processing

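Of 77 differences tested for the 10 genes, 76 kept direction and side of the threshold with no filter and 74 with RLE scaling. The number was 73 with another set of libraries, 68 with DESeq2, 68 with the replicate block and 62 with library totals. Leaving out a library or tumour kept 1303 of 1397 values, in fits that share most of their libraries. Calls lost in some settings included Il1b in CD206hi against CD206neg, and Il1r2 and Il18 in CD206pos against CD206neg. Counts of genes called moved most among macrophages. CD206hi against CD206pos gave 21 genes, 97 with the replicate block, 36 with another set of libraries, 83 with DESeq2 (which called 1 of the 10) and 0 to 48 on leaving out. CD206hi against CD206neg gave 1110, 1791 with the replicate block, 729 with library totals, 545 without CD206neg 6 and 8, and 535 to 1164 on leaving out. CD206pos against CD206neg gave 1625, 2800 with the replicate block (5 of the 10 genes), 920 with library totals, 930 without CD206neg 6 and 8, and 765 to 2070 on leaving out. The causes were not tested.

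Reversed signs were all among differences that did not pass. With the replicate block, Il1r1 in CAF1 against CAF2 gave -0.027, and Il33 and Il1rap in CD206hi against CD206pos 0.20 and 0.023. Il1r1 in CAF1 against CAF2 also gave -0.095 with library totals, -0.0043 with no filter and -0.011 with another set of libraries. Il1a in CD206hi against CD206pos gave -0.0044 with RLE and with DESeq2 and -0.015 with library totals. Library totals also gave 0.075 for Il1a and 0.049 for Il1b in endothelial cells against CAF1, and 0.25 for Il1rap against TAMs. Leaving out a library or tumour gave, for CAF1 against CAF2, -0.17 to 0.14 for Il1r1, -0.21 to 0.16 for Il1rap and -0.33 to 0.11 for Il18bp. For CD206hi against CD206pos it gave -0.19 to 0.15 for Il1a, -0.48 to 0.53 for Il33 and -0.33 to 0.088 for Il1rap. Against CD206neg the ranges were -0.057 to 0.25 for Il1rap in CD206hi and -0.31 to 0.38 for Il1rn in CD206pos. In endothelial cells they were -0.70 to 0.20 for Il1a and -0.061 to 0.68 for Il18bp against CAF1, and -0.30 to 0.43 for Il18bp against CAF2.

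Library totals raised the median log2 difference of all genes by 0.14 (CD206hi) and 0.17 (CD206pos) against CD206neg, 0.44 and 0.39 in endothelial cells against CAF1 and CAF2, 0.30 in CAFs and 0.73 in endothelial cells against TAMs. The share of calls that were higher then went from 61.2 to 78.7%, 60.2 to 83.3%, 45.8 to 69.0%, 51.6 to 70.6%, 54.8 to 68.9% and 59.7 to 82.9%. A pseudocount of 0.5 moved none of 24 mean ratios beyond 1 SD. Levels under 0.251 to 0.477 CPM, such as Il1rl1 in 4 endothelial libraries, are limited by depth.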
